A study of Mus musculus with 78 samples.

Results

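The miRNAs described here are those of the imprinted Dlk1-Dio3 locus on mouse chromosome 12. They were taken by name from the deposited miRNA table: the rows, of either arm, that carry the numbers of the hairpins between Dlk1 and Dio3 and have a summed count of at least 100 over all libraries. Such a name was carried by 106 of the 1916 rows, and 92 reached the minimum. The members just inside it were miR-3072-5p with 100 counts and miR-381-5p with 163, and the rows just outside it were miR-665-5p with 92 and miR-544-5p with 72. A low-count filter by group left 588 miRNAs for testing, 89 of them members. The 3 members that did not pass it were miR-3072-5p, miR-381-5p and miR-496a-5p.

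The samples were tissue-engineered mouse cartilage, grown from induced pluripotent stem cells and then given an inflammatory cytokine, and the series' title asks how miRNAs and mRNAs interact in that response. Untreated controls were taken at 0, 4, 12, 24 and 72 h. The treated groups received either interleukin-1 beta (IL-1beta) at 1 ng/mL or tumor necrosis factor alpha (TNF-alpha) at 20 ng/mL and were taken at 4, 12, 24 and 72 h. Each of the 13 groups had 3 libraries, a, b and c, for small RNA and 3 for mRNA. The sources used here give no strain, sex, age or stem cell clone, and it is not said there whether a, b and c are separate cultures. The p-values measure the spread between these libraries, which may be technical.

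Imprinted genes are read from the copy of only one parent. In the Dlk1-Dio3 locus the protein genes Dlk1, Rtl1 and Dio3 are read from the paternal copy, and the non-coding RNAs Meg3, Rian, Mirg and the antisense of Rtl1 are read in one direction from the maternal copy. Many of the miRNA hairpins lie along these maternal transcripts, and each hairpin is cut by Drosha and Dicer into a 5p and a 3p arm. The arm that is loaded on an Argonaute protein finds its targets mainly through its seed, bases 2 to 8. The maternal transcripts are known to be abundant in embryo, muscle and brain and to be silenced in many mouse induced pluripotent stem cell lines.

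Mature sequences were taken from RefSeq (GRCm38.p6, the assembly known as mm10), which held one for 88 of the 92 members. They are printed 5′ to 3′ with the seed in capitals for the members on which the results turn. The first group holds the most abundant member and a pair of abundant members that fell with IL-1beta.
miR-127-3p: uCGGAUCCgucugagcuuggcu
miR-434-5p: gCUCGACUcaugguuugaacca
miR-134-5p: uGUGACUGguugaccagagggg
The second group holds the members with the largest or earliest falls.
miR-341-5p: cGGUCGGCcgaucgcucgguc
miR-341-3p: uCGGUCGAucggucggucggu
miR-370-3p: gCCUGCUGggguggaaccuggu
miR-540-3p: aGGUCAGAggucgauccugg
miR-665-3p: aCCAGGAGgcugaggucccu
miR-485-3p: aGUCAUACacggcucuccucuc
miR-543-3p: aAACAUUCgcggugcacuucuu
miR-376b-3p: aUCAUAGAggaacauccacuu
miR-154-3p: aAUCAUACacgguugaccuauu
The last lines show seed sharing. The pair miR-379-3p and miR-411-3p share a seed, as do miR-379-5p and miR-1193-5p.
miR-379-3p: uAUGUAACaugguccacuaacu
miR-411-3p: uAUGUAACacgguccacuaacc
miR-379-5p: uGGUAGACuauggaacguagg
miR-1193-5p: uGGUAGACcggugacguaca

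The seeds of the members were nearly all different. The 88 members with a sequence carried 84 seeds, and the other 2 shared seeds join miR-370-5p with miR-1193-3p and miR-494-5p with miR-410-5p. The largest fallers printed above have no seed in common. Some members are so alike that the counting could split their reads. Its rules are not given in the sources used, so the values of these members are uncertain. The mature forms of miR-379-3p and miR-411-3p differ by 2 edits. Those of miR-300-3p and miR-381-3p and of miR-376a-3p and miR-376b-3p differ by 3. Those of miR-495-3p and miR-543-3p and of miR-154-3p and miR-369-3p differ by 4. Rows under the minimum can be closer to a member. A single edit parts miR-376b-5p (68005 counts) from miR-376c-5p (30), and miR-299a-5p (223) from miR-299b-5p (0). From miR-299a-3p to miR-299b-3p and from miR-496a-5p to miR-1197-5p there are 4. The hairpin of miR-3071 lies on the minus strand across that of miR-136, so that miR-3071-3p overlaps miR-136-5p by 20 bases, and miR-3071-5p overlaps miR-136-3p by 19. Their reads cannot be told apart without strand.

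The members came from 50 hairpins, 42 of them with both arms and 8 with a single arm above the minimum. RefSeq places them at chr12:109563692-109747960, a stretch of 184.3 kb, and lists 60 hairpins between Dlk1 (chr12:109452485-109463336) and Dio3 (chr12:110279230-110281097). A single hairpin, that of miR-770, lies in Meg3 (chr12:109540996-109571729). The 11 hairpins placed within Rtl1 (chr12:109564900-109604418), called opposite Rtl1 here, include those of miR-127 and miR-434. They were taken by position without regard to strand, so they also count that of miR-3071, on the minus strand. Rian (chr12:109603945-109661716) holds the hairpins of miR-341 and miR-370. The 27 hairpins between Rian and Mirg include those of miR-379, miR-376b, miR-134 and miR-485, and the 9 in Mirg (chr12:109734981-109749458) include those of miR-154 and miR-409.

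Members held 20.96% of all miRNA counts over the 39 libraries, and between 17.6% and 28.4% in single libraries. One of them, miR-127-3p, made up 68.9% of the member counts. It is read opposite Rtl1 and is known to cut that transcript. The 3 most abundant members (miR-127-3p, miR-411-5p and miR-434-3p) held 86.9% and the 10 most abundant 96.6%. Mean levels over all libraries ran from 0.222 to 145307 CPM, the usual unit of counts scaled to library size, here with TMM factors. At least 1000 CPM was reached by 9 members and at least 100 CPM by 33.

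The miRNA libraries held 4653364 to 17994498 counts, and the 38 mRNA libraries used held 11163263 to 68655350. Of the miRNA libraries 3 stood apart from their groups: IL-1beta 12 h b, TNF-alpha 72 h b and TNF-alpha 72 h c. Their TMM factors were 0.829, 0.677 and 0.773. They held 33056, 71981 and 24258 CPM of miR-191-5p, which is no member. The miRNA counts at 72 h with TNF-alpha, and the members named there, rest on these libraries and are given with and without them. Engineered cartilage was the labelled tissue: all 10 chondrocyte markers listed reached a mean of 1 CPM, and miR-140-3p, known for cartilage, stood at 86569 to 117006 CPM in the 72 h controls.

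In untreated cartilage no member was called over time. Against control at 0 h none passed an adjusted p of 0.05 at 4, 12, 24 or 72 h in edgeR's quasi-likelihood test, where 0%, 0%, 0% and 0.85% of all miRNAs tested were called. At an unadjusted p under 0.05 the numbers were 2, 4, 2 and 13 of 89, and DESeq2 called 0, 1, 0 and 1. A single call appeared at 12 h without control 12 h c and at 72 h without control 72 h c, and without the 3 libraries that stand apart the calls were 1 and 4. The median log2 difference of the members at 72 h was -0.15, beside -0.02 over all miRNAs tested. The member nearest to no change was miR-540-3p, with a mean of 178 CPM at 72 h and 177 at 0 h.

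With IL-1beta no member passed the test as higher at any time, and the first to be called lower was miR-341-5p. At 4 h it stood at 11.9, 7.33 and 8.71 CPM in the controls and at 5.43, 4.86 and 6.72 with IL-1beta. All treated libraries lay below all controls. This log2 difference of -0.72 ± 0.181 (standard error, 3 libraries a group) had an adjusted p of 0.0477 in edgeR, and it was the only call among members, where 0.85% of all miRNAs were called. The call was lost without control a or c or without IL-1beta a or b of that time. At 12 h miR-341-5p was again the only member called (-1.01 ± 0.196, adjusted p = 0.00182, edgeR), beside 2.72% of all miRNAs. Without IL-1beta 12 h c a second member was called, as higher.

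At 24 h with IL-1beta 6 members had fallen, beside 3.91% of all miRNAs called and 1.36% called lower. The levels of miR-341-5p were 11.8, 13 and 14.2 CPM in the controls and 3.4, 2.68 and 3.2 with IL-1beta, a log2 change of -2.04 ± 0.197. The groups lay far apart. At 12 h the means had been 7.03 CPM in the controls and 3.48 with IL-1beta. The other 5 were miR-376b-3p (-1.22 ± 0.273), miR-485-3p (-1.06 ± 0.171), miR-665-3p (-0.93 ± 0.219), miR-370-3p (-0.68 ± 0.175) and miR-540-3p (-0.63 ± 0.165). For miR-485-3p the control libraries held 23.2, 23.9 and 28 CPM and the treated ones 11.3, 10.7 and 13.7. The median over the 89 members was -0.21, beside -0.03 over all miRNAs, and 75 members lay below 0. Without control b, control c, IL-1beta a or IL-1beta c of that time 3 members were called. Without the 3 libraries that stand apart 10 members were called, all lower, beside 5.61% of all miRNAs called.

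**Figure D1:**
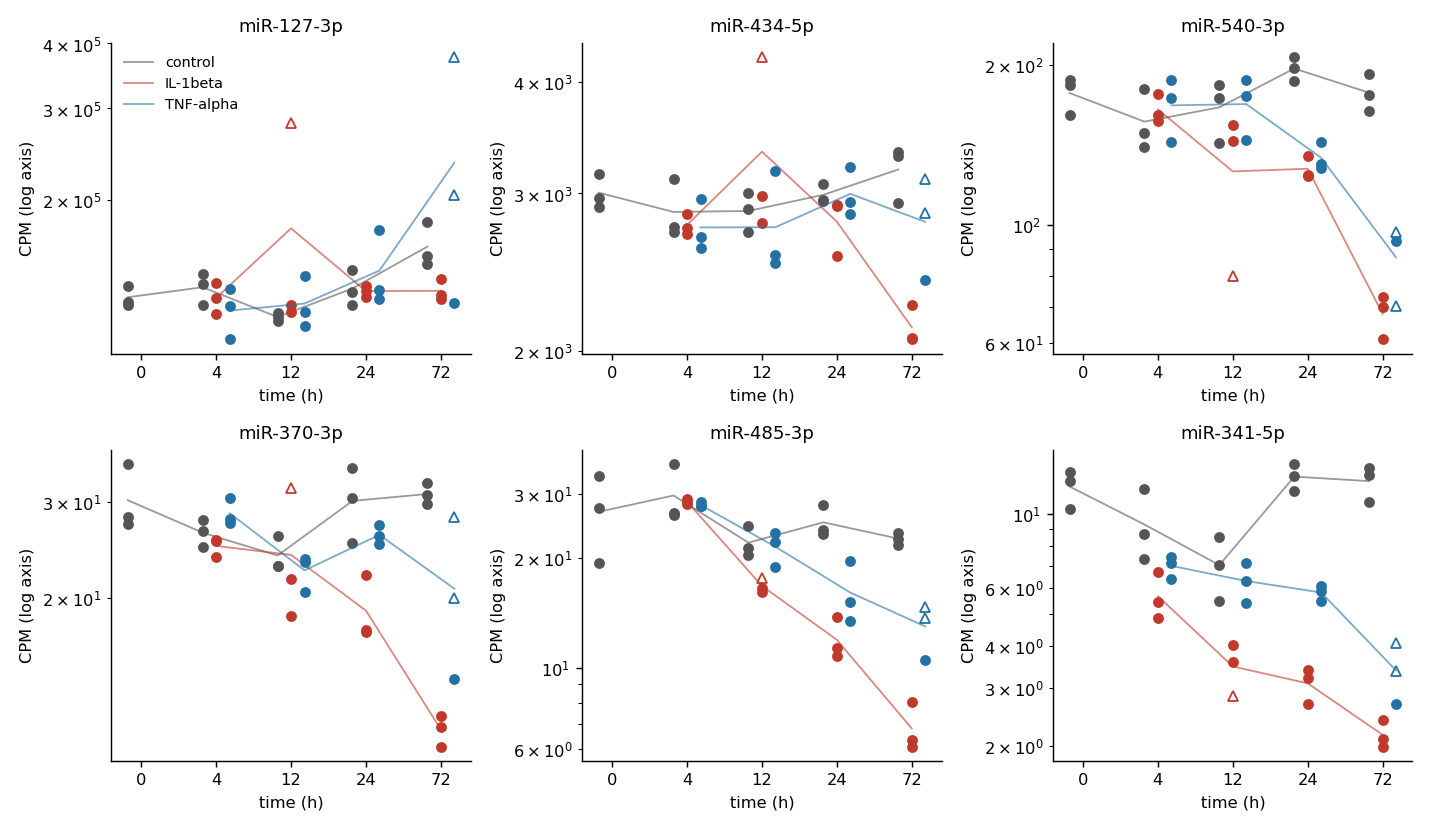
Levels of 6 members in every library, in CPM on a log axis, against time in h on an axis that gives each time the same step; lines join the group means and open triangles mark the 3 libraries that stand apart. The IL-1beta libraries of miR-341-5p lie below the controls of the same time at each time, those of miR-370-3p and miR-485-3p lie farthest below at 72 h, and miR-127-3p is highest in the open triangles.

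At 72 h with IL-1beta 34 of the 89 tested members were lower and 0 higher. Over all 588 miRNAs 13.4% were called and 8.5% were called lower and 4.93% higher, so that members made up 34 of the 50 miRNAs that fell. Among the 499 other miRNAs tested 29 rose and 16 fell. The median member changed by -0.41, beside -0.01 over all miRNAs, and 83 members lay below 0. For 53 members the groups did not overlap, beside 31.6% of all miRNAs. Of the 34 called members 11 fell at least 2-fold. Without IL-1beta 72 h c the count of lower members was 22. Without the 3 libraries that stand apart it was 51, which took in all 34. That fit tested 642 miRNAs in place of 588, and 18.8% of them were called here, 79 of them lower.

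The largest falls were of members at low or middle levels. The level of miR-485-3p was 23.4, 21.7 and 22.6 CPM in the 72 h controls and 8.05, 6.08 and 6.32 with IL-1beta, a log2 change of -1.72 ± 0.174 (adjusted p = 6.54e-09, edgeR). Its 3 treated libraries were alike and all under 10 CPM. For miR-665-3p the values were 10.9, 10.4 and 9.44 CPM against 2.56, 3.31 and 4.07, a change of -1.63 ± 0.229. The level of miR-370-3p, whose hairpin lies in Rian, was 32.5, 30.9 and 29.8 CPM against 12.2, 10.7 and 11.6, a change of -1.43 ± 0.176. Neither pair of groups overlapped.

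Further clear falls were seen opposite Rtl1 and between Rian and Mirg. The level of miR-540-3p was 164, 193 and 176 CPM in the controls and 70, 73.1 and 60.8 with IL-1beta (-1.39 ± 0.168). That of miR-376b-3p was 33.2, 28.7 and 52.3 CPM against 10.7, 14 and 18.7 (-1.39 ± 0.274). Its controls were the least alike of these members, yet all lay above the treated libraries. The level of miR-543-3p was 28.7, 25.4 and 30.1 CPM against 11.3, 10.9 and 10.7 (-1.36 ± 0.203). That of miR-379-3p was 174, 166 and 183 CPM against 75.7, 72.5 and 79.7 (-1.20 ± 0.146). The similar miR-411-3p, with the same seed, changed by -0.82 ± 0.127.

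The pair of members that follows lies under 10 CPM and was chosen after its values were seen. The deepest value was that of miR-154-3p, with 36, 24 and 16 counts in the controls and 1, 3 and 4 with IL-1beta. Its log2 change was -3.27 ± 0.609 (adjusted p = 0.000152, edgeR), and it rests on these few counts. For miR-341-5p at 72 h the counts were 203, 155 and 103 against 28, 26 and 30. On the CPM scale that was 13.1, 13.7 and 10.9 against 1.99, 2.39 and 2.11, a change of -2.54 ± 0.196 (adjusted p = 1.07e-11, edgeR). No treated library came near a control.

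Abundant members were also among those called. The level of miR-134-5p, known for limiting dendritic spine growth through Limk1, was 741, 720 and 783 CPM in the controls and 444, 364 and 332 with IL-1beta (-0.98 ± 0.139). That of miR-434-5p was 3340, 2927 and 3305 CPM against 2250, 2068 and 2060 (-0.59 ± 0.126). Both were set fully apart. The changes of miR-300-3p (-0.56 ± 0.116), miR-410-3p (-0.51 ± 0.166), miR-431-5p (-0.42 ± 0.0951) and miR-541-5p (-0.35 ± 0.114) also passed the test. The last of these and miR-410-3p lost their call in 5 and 4 of the 6 fits that leave out 1 library: miR-541-5p in all but the one without control b, and miR-410-3p without control b or c or without IL-1beta b or c.

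The 4 remaining members of the 10 most abundant were not called with IL-1beta at 72 h. The level of miR-127-3p was 181326, 156012 and 151015 CPM in the controls and 140891, 129406 and 131343 with IL-1beta, a log2 difference of -0.28 ± 0.246 (adjusted p = 0.605, edgeR). Its treated libraries all lay below its controls. For miR-411-5p the difference was -0.32 ± 0.133 (adjusted p = 0.125, edgeR), for miR-434-3p -0.45 ± 0.273 and for miR-136-3p -0.30 ± 0.186. Without the 3 libraries that stand apart miR-127-3p, miR-411-5p and miR-136-3p were called lower, at -0.30, -0.34 and -0.31. The member nearest to no change was miR-377-3p, at 135, 112 and 119 CPM against 113, 121 and 132.

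As a share of all miRNA counts the members were lower with IL-1beta. They held 22.2% ± 1.11 (SD, n = 3) at 72 h in the controls and 17.9% ± 0.320 with IL-1beta. Without miR-127-3p the shares were 6.47% ± 0.484 and 4.91% ± 0.105. Lower members were found at every level and in both arms, beside 8.5% of all miRNAs called lower. Of the 26 tested members under 10 CPM 4 were lower, of the 30 at 10 to 100 CPM 13, of the 24 at 100 to 1000 CPM 12 and of the 9 above that 5. Their medians were -0.32, -0.41, -0.47 and -0.42. The 39 tested 5p members had 10 lower ones and a median of -0.35, and the 50 tested 3p members had 24 and a median of -0.48.

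The interaction of IL-1beta and time tests whether the effect itself changed over the 4 times. It passed for 15 of the 89 members, beside 4.76% of all miRNAs (28 in all). Between 4 and 72 h the effect moved by -1.83 for miR-341-5p, -1.67 for miR-485-3p, -1.46 for miR-540-3p and -1.35 for miR-370-3p on the log2 scale. Without control 72 h c the count was 9. Without the 3 libraries that stand apart it was 27, in a fit of 642 miRNAs. The shares of all miRNAs called in these fits are not given here.

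With TNF-alpha the first calls among members came at 24 h. At 4 and 12 h edgeR called 0 of the 89, beside 0.68% and 1.53% of all miRNAs. The unadjusted p was under 0.05 for 4 and 3 of them, and DESeq2 called 0 at each time. At 24 h 3 members were lower, beside 4.25% of all miRNAs called and 2.04% called lower: miR-341-5p (-1.16 ± 0.177), miR-485-3p (-0.64 ± 0.164) and miR-540-3p (-0.56 ± 0.164). All 3 also fell with IL-1beta at that time, in a comparison that shares the control libraries. The members' share called, 3.37%, was near that of all miRNAs. The calls of miR-485-3p and miR-540-3p were both lost without control b or c or without TNF-alpha b or c of that time. Without the 3 libraries that stand apart 9 members were called lower, beside 7.79% of all miRNAs called.

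At 72 h with TNF-alpha 35 of the 89 members were lower and 3 higher. Of all miRNAs 29.1% were called, 13.4% lower and 15.6% higher. Of the 499 other miRNAs 89 rose and 44 fell. The median member changed by -0.36, beside 0.03 over all miRNAs, and 68 members lay below 0. For 38 members the groups did not overlap, beside 28.2% of all miRNAs. The scaling matters here: with library totals alone the median of all miRNAs shifted by -0.25, 52 members were lower and 2 higher, and the median member stood 0.38 below that of all miRNAs, close to the 0.40 with TMM.

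The falls that did not rest on the libraries that stand apart were led by miR-341-5p. It stood at 13.1, 13.7 and 10.9 CPM in the 72 h controls and at 2.69, 3.37 and 4.09 with TNF-alpha, a log2 change of -1.89 ± 0.191. Without the 3 libraries, which leaves TNF-alpha library a alone, it was -2.28. For miR-540-3p the TNF-alpha libraries held 93.2, 70.3 and 96.9 CPM, all below the controls, at -1.03 ± 0.166 with them and -0.98 ± 0.18 without. The other arm of the miR-341 hairpin, miR-341-3p, stood at 406, 501 and 504 CPM in the controls and 263, 178 and 268 with TNF-alpha. Its change was -0.99 ± 0.16 with and -0.90 ± 0.173 without the 3 libraries.

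Some members fell more in library a than in b and c. Their values without the 3 libraries rest on TNF-alpha a alone, and the standard errors there take the spread of the other groups. The level of miR-370-3p with TNF-alpha was 14.2, 28.2 and 20 CPM, at -0.57 ± 0.172 with all libraries and -1.18 ± 0.183 without the 3. That of miR-485-3p was 10.5, 14.7 and 13.7 CPM, at -0.79 ± 0.168 and -1.16 ± 0.251. That of miR-134-5p was 421, 694 and 696 CPM. It was not called with all libraries (-0.31 ± 0.138), and without the 3 the change was -0.88. In contrast miR-665-3p stood at 5.82, 4.52 and 3.58 CPM. It was called with all libraries (-1.15 ± 0.226), and without the 3 the change was -0.87.

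The 3 rises with TNF-alpha at 72 h were each carried by libraries b and c. The level of miR-409-5p was 131, 167 and 95.1 CPM in the controls and 139, 1198 and 558 with TNF-alpha (2.27 ± 0.734, adjusted p = 0.0202, edgeR). Library a lay among the controls, and without the 3 libraries the difference was 0.03. That of miR-666-5p was 59.1, 55.3 and 56.4 CPM against 43.4, 206 and 82.1 (0.96 ± 0.291), and without the 3 libraries -0.45. That of miR-379-5p was 336, 358 and 369 CPM against 282, 697 and 718 (0.67 ± 0.25), and without them -0.39. For both the sign turned.

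The most abundant member followed the same libraries. With TNF-alpha at 72 h miR-127-3p stood at 126804, 377093 and 204298 CPM, a difference of 0.54 ± 0.246 that was not called (adjusted p = 0.0991, edgeR). Library a lay below all controls and b and c above them. At 12 h with IL-1beta its levels were 125753, 281965 and 121789 CPM, again highest in the library that stands apart. Members held 22.5% ± 5.17 (SD, n = 3) of the counts with TNF-alpha at 72 h, and without miR-127-3p 4.37% ± 1.35. One fall showed the opposite libraries: miR-376a-5p stood at 214, 54 and 89.2 CPM with TNF-alpha and at 209, 233 and 223 in the controls (-0.90 ± 0.286, and -0.10 without the 3 libraries). The member nearest to no change was miR-485-5p, the other arm of the miR-485 hairpin, at a mean of 142 CPM in both groups.

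Without the 3 libraries 22 members were lower with TNF-alpha at 72 h and 0 were higher, beside 11.8% of all miRNAs called. Of the 38 first called 16 were among them, and 36 had the same sign. That count rests on TNF-alpha library a, which is assumed to vary like the other groups. It includes miR-495-5p and miR-412-3p, which have 0 counts in library a. Leaving out TNF-alpha b alone gave 17 calls and leaving out control 72 h c gave 19. In each of the 3 TNF-alpha libraries many members lay below all 3 controls: 60 in a, 61 in b and 61 in c, beside 36.4%, 40.3% and 37.8% of all miRNAs tested. In the IL-1beta libraries the numbers were 63, 72 and 72, beside 32.7%, 32.5% and 35.5%. Above all 3 controls lay 5 members in TNF-alpha a, 18 in b and 17 in c, beside 30.1%, 40.1% and 36.2%.

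**Figure D2:**
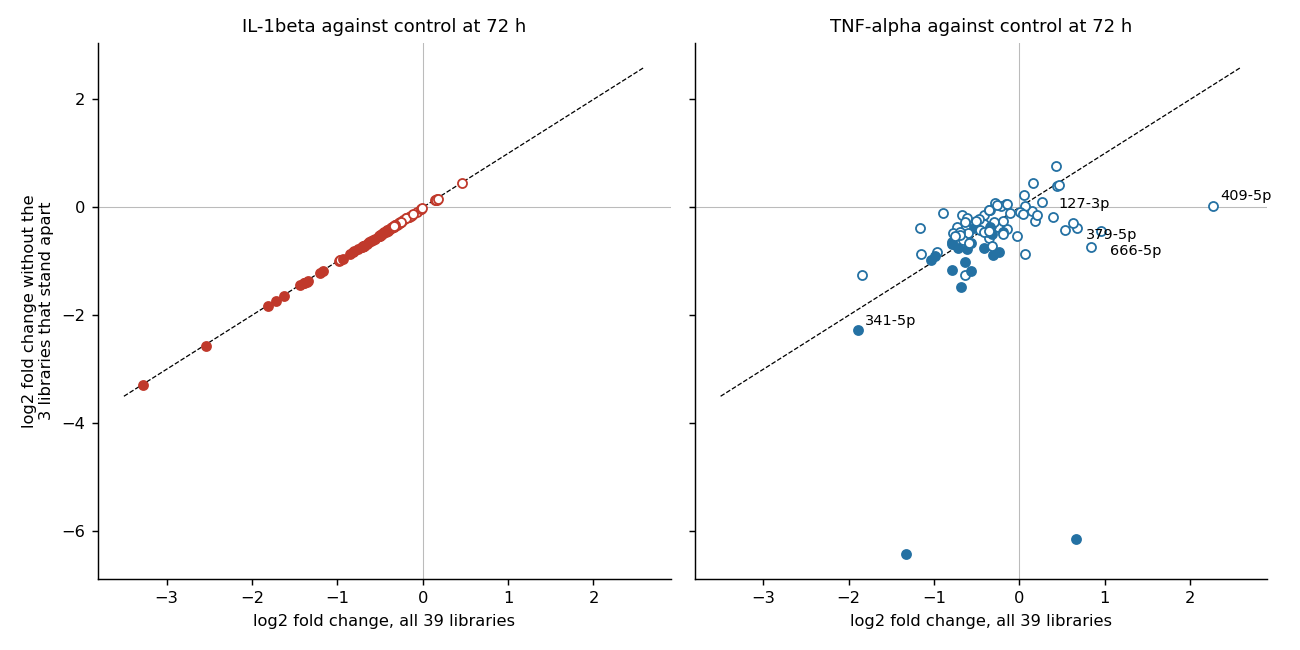
Log2 fold change against control at 72 h of the 89 tested members with all 39 libraries (horizontal) and without the 3 libraries that stand apart (vertical); filled points had an adjusted p under 0.05 without them, and the dashed line marks equal values. With IL-1beta the points lie on the line, while with TNF-alpha miR-409-5p moved from 2.27 to 0.03, and the lowest points, near the bottom edge, are miR-495-5p and miR-412-3p with 0 counts in the single TNF-alpha library left.

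The comparisons of the 2 cytokines with control share their control libraries. The interaction of TNF-alpha and time passed for 4 of the 89 members, a share near the 4.25% of all miRNAs. They were miR-341-5p, miR-540-3p, miR-409-3p and miR-341-3p. That count was 14 without TNF-alpha 72 h a, in a fit whose share of all miRNAs is not given here.

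A direct comparison of the cytokines separated few members before 72 h. At 4 h edgeR and DESeq2 called 0, with 0 at an unadjusted p under 0.05 as well, beside 0% of all miRNAs. At 12 and 24 h only miR-341-5p was called, lower with IL-1beta by -0.84 ± 0.2 and -0.88 ± 0.201, beside 0.85% and 1.36% of all miRNAs. The 12 h call was lost without IL-1beta b or c or TNF-alpha b or c, and the 24 h call without IL-1beta a or c or TNF-alpha a. At 72 h 20 members were lower with IL-1beta than with TNF-alpha and 0 higher. Of all miRNAs 22.3% were called there, 16.3% lower and 5.95% higher, so that the members' share, 22.5%, was near that of all miRNAs.

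Which members differed between the cytokines depended on the libraries. The medians at 72 h were -0.13 for members and -0.07 for all miRNAs, and with library totals alone 0.12 and 0.18, the opposite sign, with 6 members lower and 1 higher. Without the 3 libraries that stand apart 3 members were lower (miR-382-5p, miR-485-5p and miR-543-3p) and miR-412-3p was higher. Of the 20 only miR-485-5p and miR-543-3p were among them. That fit leaves TNF-alpha a alone at 72 h, where miR-412-3p has 0 counts. The level of miR-543-3p at 72 h was 11.3, 10.9 and 10.7 CPM with IL-1beta and 20.4, 19 and 12.6 with TNF-alpha, and every TNF-alpha library lay above the IL-1beta ones. For miR-376b-3p the values were 10.7, 14 and 18.7 against 31.2, 28.5 and 30.4 CPM. Its difference was -1.05 ± 0.275 with the 3 libraries and -1.07 without. The count was 8 without TNF-alpha b, 12 without IL-1beta c, 13 without IL-1beta b and 32 without TNF-alpha a. The member nearest to no change between the cytokines was miR-411-5p, with a mean of 16843 CPM with IL-1beta and 16856 with TNF-alpha.

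Along the locus the falls with IL-1beta at 72 h were found in each stretch. Lower members were 1 of 2 in Meg3, 8 of 21 opposite Rtl1, 3 of 4 in Rian, 15 of 46 between Rian and Mirg and 7 of 16 in Mirg. Of all miRNAs 8.5% were called lower. The medians of these stretches were -0.64, -0.42, -1.14, -0.34 and -0.39. With TNF-alpha the lower members were 2, 9, 4, 16 and 4, beside 13.4% of all miRNAs called lower. The medians were -0.92, -0.35, -0.88, -0.35 and -0.27. In the fit without the 3 libraries that stand apart, which leaves TNF-alpha a alone, the medians were -0.93, -0.40, -1.04, -0.36 and -0.55. The 4 members in Rian, both arms of miR-341 and of miR-370, had the lowest median with IL-1beta and already a median of -0.54 at 24 h, when that of every other stretch lay between -0.31 and -0.12. Whether the stretches differ was not tested.

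**Figure D3:**
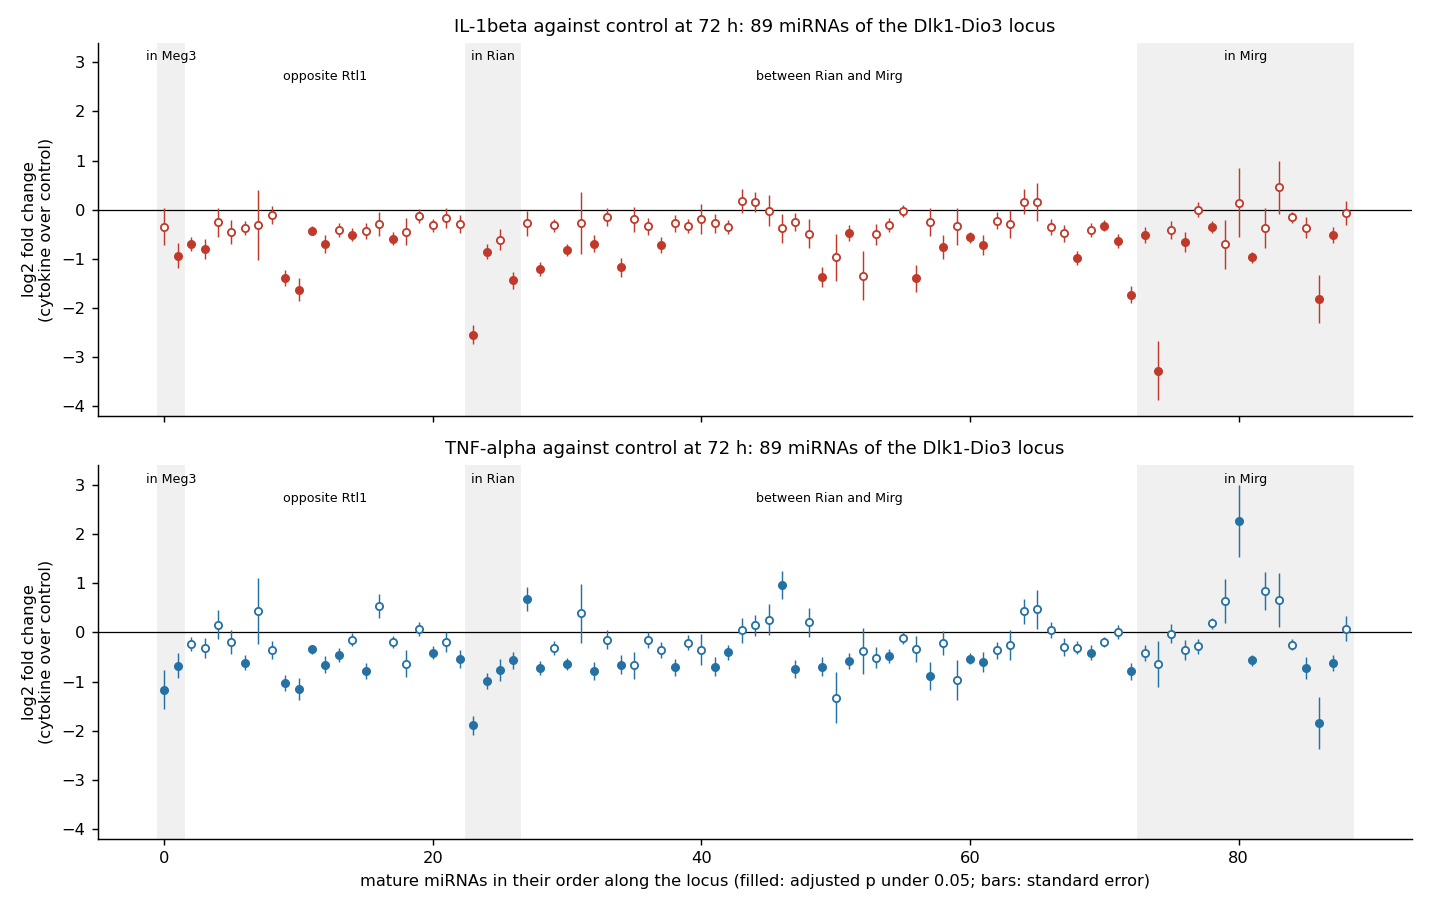
Log2 fold change over control at 72 h (bars: standard error) of the 89 tested members in their order along the locus, with IL-1beta above and TNF-alpha below; filled points had an adjusted p under 0.05, and shading marks the members in Meg3, Rian and Mirg. Most points lie below 0 over the whole locus, the lowest in Rian is miR-341-5p (-2.54 and -1.89), and the highest with TNF-alpha is miR-409-5p (2.27).

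The arms of one hairpin come from one precursor, and their ratio within a library does not depend on the scaling of that library. For 37 hairpins of the locus, of 141 in the table with enough counts, the log2 ratio of the 5p to the 3p arm was tested with limma. No locus hairpin was called at 4 h or 12 h with either cytokine, or with TNF-alpha at 24 h. At an unadjusted p under 0.05 the numbers were 3 and 2 with IL-1beta at 4 and 12 h, and 0, 1 and 3 with TNF-alpha at 4, 12 and 24 h. The shares of all hairpins called in these were 0% and 0.709% with IL-1beta and 0.709%, 0.709% and 0% with TNF-alpha. Without control 12 h a 1 locus hairpin was called with IL-1beta at 12 h. At 24 h with IL-1beta 3 were called, miR-341, miR-376b and miR-485, beside 4.26% of all hairpins. A single call was left without control a, control b or IL-1beta a of that time.

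At 72 h with IL-1beta the ratio changed for 9 of the 37 locus hairpins, beside 9.22% of all hairpins (13). For miR-341 the log2 ratio was -4.95, -5.18 and -5.52 in the controls and -7.21, -6.64 and -6.80 with IL-1beta, so the 5p arm fell more than the 3p arm (-1.66 ± 0.224, adjusted p = 4.68e-06, limma). For miR-376b it was 2.21, 2.21 and 1.61 against 3.88, 3.38 and 2.86, so the 3p arm fell more (1.36 ± 0.28). Neither pair of groups overlapped. For miR-540 the ratio was -1.23, -1.71 and -1.51 against -0.34, -0.49 and 0.18, the more abundant 3p arm falling more (1.27 ± 0.295). The change of miR-154 was the largest, at 2.72 ± 0.507, on the few 3p counts given above.

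The remaining called hairpins were miR-485 (1.10 ± 0.202), miR-380 (1.02 ± 0.271), miR-543 (0.87 ± 0.23), miR-377 (-0.65 ± 0.202) and miR-134 (-0.58 ± 0.163). The arm that fell more was the less abundant one in 5 of the 9. The count was 4 without IL-1beta 72 h c, 5 without control 72 h c and 15 without the 3 libraries that stand apart. Among 39 hairpins with both arms tested one by one, both arms were lower in 6 with IL-1beta, only the more abundant arm in 11, only the less abundant in 7 and neither in 15. With TNF-alpha these numbers were 6, 12, 8 and 13, and without the 3 libraries that stand apart 3, 9, 7 and 20.

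With TNF-alpha at 72 h the ratio changed for 7 of the 37 locus hairpins. This share was below the 22.7% of all hairpins called (32 of 141). Named by size the 7 were led by miR-409 (2.39 ± 0.75), miR-666 (1.45 ± 0.448), miR-379 (1.31 ± 0.327) and miR-127 (-1.21 ± 0.391). For miR-127 the log2 ratio was -8.84, -8.29 and -8.32 in the controls and -8.74, -10.92 and -9.41 with TNF-alpha, so that libraries b and c lay below the controls and a among them. For miR-409 it was -1.26, -1.09 and -1.83 against -0.67, 2.47 and 1.20. All 3 treated libraries lay higher, b and c by far. The count was 2 without control 72 h c, 4 without control 72 h b and 11 without TNF-alpha 72 h a. It was 5 without the 3 libraries that stand apart: miR-341, miR-485, miR-411, and miR-495 and miR-412 on the 0 counts given above. That fit leaves TNF-alpha a alone. The change of miR-409 was then 0.72, that of miR-666 0.08, that of miR-379 0.37 and that of miR-127 -0.26.

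**Figure D4:**
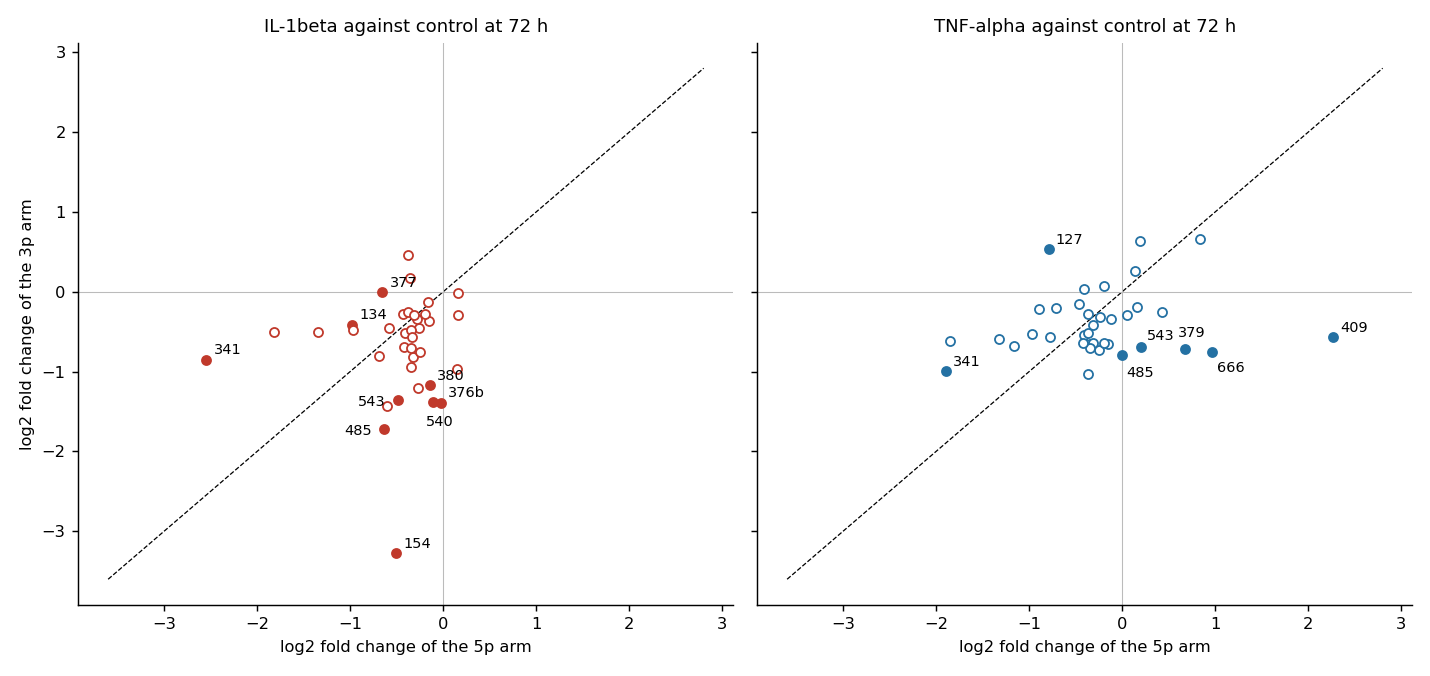
Log2 fold change over control at 72 h of the 3p arm (vertical) against the 5p arm (horizontal) of locus hairpins with both arms tested, for IL-1beta (left) and TNF-alpha (right); filled, labelled points are hairpins whose arm ratio changed at an adjusted p under 0.05, and the dashed line marks equal change. With IL-1beta miR-341 lies above the line (5p arm -2.54) and miR-154 far below it (3p arm -3.27), and with TNF-alpha the filled points farthest from the line include miR-409 and miR-127.

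Transcripts of the locus were measured in the mRNA libraries. Of the 50 hairpins 12 lie in Meg3, Rian or Mirg, 11 lie opposite Rtl1, and the 27 between Rian and Mirg lie in none of these as RefSeq places them. Per length, Rian was the highest in the 72 h controls at 33.7 CPM per kb, then Mirg at 11.9, Meg3 at 11.2, Rtl1 at 7.5 and Dlk1 at 6.94. Dio3, which codes for a deiodinase of thyroid hormone, had 34 counts in all and did not pass the filter. The sources used here do not give the strand setting of the counting, so reads of Rtl1 and of its antisense, the precursor of miR-127, cannot be told apart.

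With IL-1beta all 5 tested transcripts were lower at 24 h and at 72 h, beside 32.6% and 38.9% of all genes called. Rian stood at 610, 631 and 600 CPM in the 72 h controls and at 70.3, 76.1 and 73.1 with IL-1beta, a log2 change of -3.07 ± 0.0703. Meg3 stood at 211, 208 and 190 against 19.6, 26.8 and 25.9 CPM (-3.07 ± 0.137), and Mirg at 88, 88.8 and 83.3 against 11.2, 13 and 11.8 (-2.85 ± 0.107). No group overlapped its controls. Rtl1, a retrotransposon-derived gene needed in the placenta, changed by -2.86 ± 0.11. Dlk1, a membrane protein known for holding back fat cell formation, changed by -2.71 ± 0.218. At 24 h the changes were -1.86 for Rian, -1.72 for Meg3, -1.82 for Mirg, -1.98 for Rtl1 and -0.69 for Dlk1.

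The transcripts were called lower earlier than most miRNAs. At 12 h with IL-1beta Rian (-0.53 ± 0.0648), Meg3 (-0.56 ± 0.124), Mirg (-0.89 ± 0.0993) and Rtl1 (-0.90 ± 0.101) were already lower, beside 29.6% of all genes called, while 1 of the 89 tested miRNAs was. At 72 h the median miRNA of the locus had changed by -0.41 beside -2.85 to -3.07 for the 3 non-coding transcripts. These values come from different assays with separate scaling, and the difference between them was not tested. At 4 h only Rtl1 was lower (-0.46 ± 0.0945), and Dlk1 was higher (0.51 ± 0.181), beside 32.7% of all genes called. The Dlk1 call at 4 h was lost without control a or c or IL-1beta b of that time.

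With TNF-alpha the same transcripts fell less. At 72 h all 5 were lower, beside 36% of all genes called: Rtl1 by -1.05 ± 0.0944, Rian by -1.0 ± 0.0648, Mirg by -0.81 ± 0.094, Meg3 by -0.75 ± 0.122 and Dlk1 by -0.58 ± 0.183. Rian stood at 299, 307 and 314 CPM, between the controls and the IL-1beta libraries. All 5 were lower with IL-1beta than with TNF-alpha at 72 h in the direct test, from -1.81 ± 0.111 for Rtl1 to -2.31 ± 0.134 for Meg3, beside 39.8% of all genes called. Among the miRNAs the median difference between the cytokines was -0.13. At 12 h with TNF-alpha Rian, Meg3, Mirg and Rtl1 were lower and Dlk1 higher, beside 28.4% of all genes called, and at 24 h Rian, Mirg and Rtl1 were lower, beside 25%. The 24 h call of Mirg was lost without TNF-alpha a or c of that time.

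Dlk1 was higher at early times. At 4 h with TNF-alpha it stood at 61.3, 45.8 and 66.2 CPM against 21.9, 33 and 25.7 in the controls (1.11 ± 0.182, adjusted p = 1.82e-05, edgeR), beside 21.5% of all genes called. The treated libraries lay above every control. It was also called higher at 12 h with TNF-alpha (0.49 ± 0.184, adjusted p = 0.0432, edgeR), where the groups overlap, and with IL-1beta (0.66 ± 0.185). The call with TNF-alpha was lost without control b or c or TNF-alpha a or b of that time, and that with IL-1beta without control b. At these times the 3 non-coding transcripts were either not called or lower. In untreated cartilage Dlk1 (0.83 ± 0.219), Meg3 (0.57 ± 0.139) and Rian (0.46 ± 0.0727) were higher at 72 h than at 0 h, beside 37.6% of all genes called. Mirg (0.13) and Rtl1 (-0.04) were not called there. The 0 h group held 2 mRNA libraries. Against it Rtl1 was lower at 4 h (-0.57) and 12 h (-0.37), and Mirg at 4 h (-0.37) and 24 h (-0.30). Dlk1 was higher at 12 h (0.62) and 24 h (0.58), and Meg3 at 12 h (0.49). The effect on each of the 5 transcripts differed between the times with IL-1beta and with TNF-alpha, beside 38.7% and 19.2% of all genes.

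**Figure D5:**
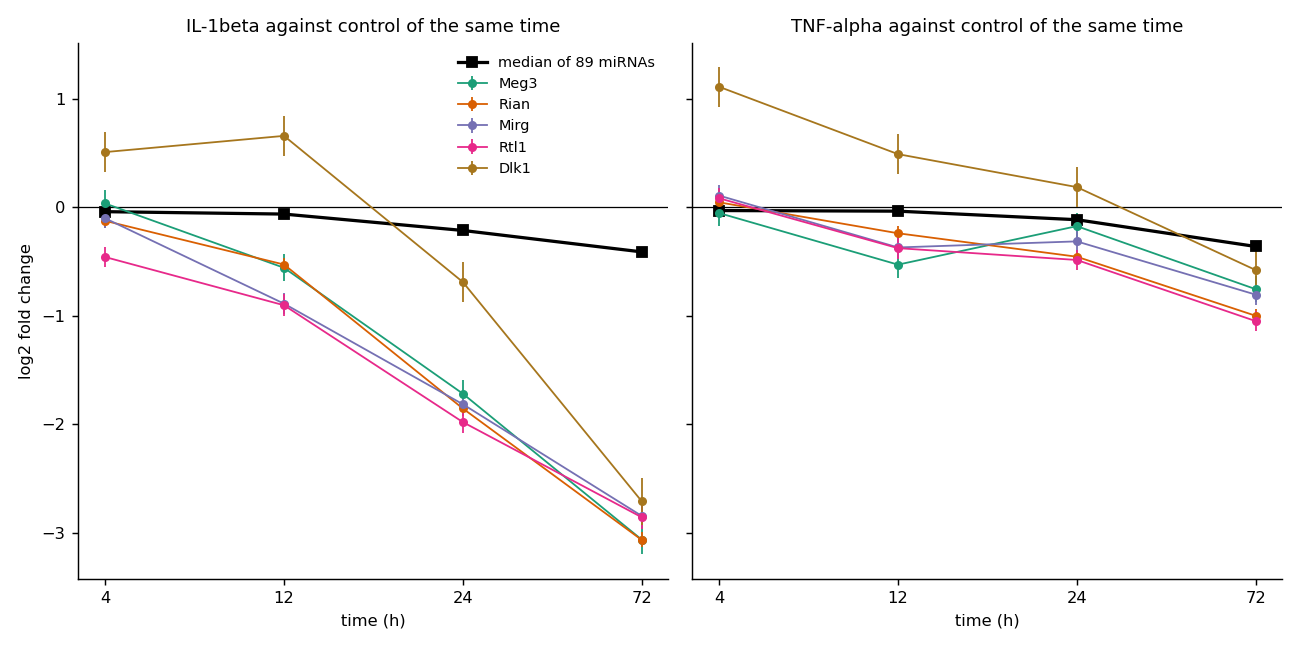
Log2 fold change over the control of the same time (bars: standard error) of 5 locus transcripts, and the median of the 89 tested miRNAs (black squares), with IL-1beta on the left and TNF-alpha on the right; the times in h are set at equal steps. With IL-1beta the transcripts fall to between -3.07 and -2.71 at 72 h while the miRNA median reaches -0.41, and Dlk1 lies above 0 at 4 and 12 h with both cytokines.

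Genes around and beyond the locus were taken from lists written for this purpose. Of 9 tested neighbours outside the imprinted stretch 3 were higher and 0 lower with IL-1beta at 72 h, among them Yy1, a transcription factor (0.36 ± 0.0661), and 2 were higher and 0 lower with TNF-alpha. Their medians were 0.09 and -0.05. Of 34 tested imprinted genes elsewhere 17 were lower and 4 higher with IL-1beta, and 18 lower and 2 higher with TNF-alpha, where 19.7% and 18.3% of all genes were lower and 19.3% and 17.8% higher. Peg10, another retrotransposon-derived gene, changed by -3.79 ± 0.151 with IL-1beta, H19, the host of miR-675, by -2.59 ± 0.176, and Cdkn1c, an inhibitor of the cell cycle, by -2.21 ± 0.124.

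Of 16 tested genes that keep DNA methylation and imprints 5 were lower and 1 higher with IL-1beta at 72 h, among them Tet1, which oxidises methylcytosine (-1.54 ± 0.115), and Dnmt3a, a DNA methyltransferase (-0.67 ± 0.0849). With TNF-alpha 7 were lower and 2 higher. Of all genes 19.7% were lower and 19.3% higher with IL-1beta, and 18.3% and 17.8% with TNF-alpha. MEF2 factors are known to activate the locus in muscle. Of the 3 tested Mef2c changed by -1.65 ± 0.0845 and Mef2a by -0.21 ± 0.053 with IL-1beta, and Mef2d was not called (-0.06 ± 0.0993). With TNF-alpha Mef2c changed by -1.14 ± 0.0818, and Mef2a (0.03 ± 0.0527) and Mef2d (0.00 ± 0.0982) were not called. Of 23 tested genes of miRNA processing and Argonaute 4 were lower and 3 higher with IL-1beta, both shares under those of all genes. With TNF-alpha 6 were lower, a share above that of all genes, and 3 higher, a share under it. The medians were 0.00 and -0.08. The largest change with IL-1beta was that of Zcchc11, which adds uridines to miRNA precursors and mature miRNAs (-0.65 ± 0.0744).

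Markers of cell types moved in the same libraries. The summed level of the 10 chondrocyte markers was 76942 to 101785 CPM in the 72 h controls, 15852 to 17160 under IL-1beta and 35374 to 41921 under TNF-alpha. That of 7 fibroblast markers was 12398 to 14330, 22460 to 23570 and 6939 to 7370 CPM. The 5 adipocyte markers summed to 286 to 388 CPM in the controls, 681 to 710 under IL-1beta and 221 to 321 under TNF-alpha, where Adipoq was under 1 CPM. The 6 leukocyte markers, 3 of them under 1 CPM (Ptprc, Adgre1 and Itgam), summed to 26.2 to 29.1, 30.9 to 37.5 and 48.7 to 70.0 CPM. In bulk libraries fewer cells of a type and less RNA per cell cannot be told apart, and the part of these shifts in the falls of the locus was not tested. Of cells in which the locus is known to be active, neurons had 3 of 8 markers at a mean of 1 CPM or more. Their summed level was 105 to 119 CPM in the controls, 40.9 to 47.1 under IL-1beta and 52.5 to 69.4 under TNF-alpha. These sums came mainly from Tubb3, Map2 and Stmn2, as Snap25, Syp, Rbfox3, Gap43 and Elavl3 were under 1 CPM in each group. Skeletal muscle had 1 of 7 markers at a mean of 1 CPM or more. Its sums were 5.32 to 7.38, 3.0 to 4.4 and 2.81 to 3.63 CPM, with Myod1 at 0 in the controls and Myog at 0 with IL-1beta.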

How the data were processed

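Small RNA and mRNA were counted in 39 libraries each. Per the labels' protocols total RNA came from frozen engineered cartilage, isolated with mirVana (small RNA) and Norgen (mRNA) kits, and libraries were made with Illumina small RNA and Ribo-Zero Gold kits. The submitters' processing notes list STAR, featureCounts, cutadapt, Trimmomatic and mm10, with no roles. The sources used here give neither the strand setting nor the rule for assigning reads to miRNAs. The authors deposited whole-number counts per mature miRNA and per gene. The mRNA table ends in 2199 nameless lines with 15490 counts, left out here. Its column for control 0 h b held 220180 counts and correlated with no other column at more than -0.364 (log2 CPM over genes of at least 1 CPM), the others at 0.966 or more with each other, so 38 mRNA libraries were used.

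Counts were tested with edgeR 4.0.16 (quasi-likelihood F test, TMM, filterByExpr by group, 1 fit per assay with 13 groups) in R 4.3.3 with the data.table package (1.17.8). Benjamini-Hochberg adjustment ran over all features tested, and an adjusted p under 0.05 was called. The common biological coefficient of variation was 19.3% for miRNA and 8.26% for mRNA. Log2 arm ratios, with 0.5 added to each count and a mean of at least 10 counts in both arms, were tested with limma 3.58.1. CPM values use TMM-scaled library sizes, and ± is a standard error unless SD is given. No library was a copy of another in its group, as chi-square over degrees of freedom was at least 31.95 for miRNA and 3.39 for mRNA. The scripts were tested on simulated counts. Sequences and positions were joined in Python 3.11.15 with edlib 1.3.9.post1 and NumPy 2.4.6, and figures were drawn in matplotlib 3.10.9.

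Members named with values in each library were the 10 most abundant, up to 4 called members of largest change per comparison and direction with at least 10 CPM, and the member nearest to no change at 72 h. From each gene list those of smallest p at 72 h were named. Members and lists were chosen with earlier results of these data known. Alternatives were DESeq2 1.42.0, other scalings, no low-count filter, a replicate block, all 39 mRNA columns and each library left out. The fit without the 3 libraries that stand apart was chosen after seeing the data. Its low-count filter left 642 miRNAs, so shares of all miRNAs in that fit are of 642.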

Additional observations from a re-analysis of the deposited data

Results flagged for a closer look

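The test was edgeR's interaction of treatment and time, adjusted over all 588 miRNAs. For 15 of the 89 members, beside 4.76% of all miRNAs, the effect of IL-1beta differed between the 4 times. From 4 to 72 h it moved by -3.56 for miR-154-3p, -1.83 for miR-341-5p, -1.67 for miR-485-3p, -1.57 for miR-665-3p, -1.46 for miR-540-3p, -1.35 for miR-370-3p, -1.33 for miR-543-3p, -1.27 for miR-376b-3p, -1.19 for miR-380-3p, -1.13 for miR-379-3p, -1.04 for miR-409-3p, -0.84 for miR-134-5p, -0.81 for miR-411-3p, -0.64 for miR-758-3p and -0.54 for miR-434-5p on the log2 scale. All of these moved down. The value of miR-154-3p rests on the few counts given above. For TNF-alpha the same test passed for miR-341-5p (-1.48), miR-540-3p (-1.13), miR-341-3p (-0.97) and miR-409-3p (-0.65). These 4 of the 89 members were a share near the 4.25% of all miRNAs.

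The effect on the locus transcripts differed between the times with both cytokines, beside 38.7% (IL-1beta) and 19.2% (TNF-alpha) of all genes. With IL-1beta it moved from 4 to 72 h by -3.22 for Dlk1, -3.10 for Meg3, -2.94 for Rian, -2.74 for Mirg and -2.40 for Rtl1. With TNF-alpha it moved by -1.69 for Dlk1, -1.13 for Rtl1, -1.05 for Rian, -0.91 for Mirg and -0.70 for Meg3. At 72 h 20 members differed between the cytokines themselves, all lower with IL-1beta, which is 22.5% of the members beside 22.3% of all miRNAs. Only 3 were lower and 1 higher without the 3 libraries that stand apart, and with library totals alone 6 were lower and 1 higher.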

How the results depend on the processing

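Of 206 other counts of members or hairpins, beside those that leave out 1 library, 170 stayed within 1.5 times the reported count. For the 4 h IL-1beta count the value was 0 with library totals alone, without the low-count filter and with the replicate block. With DESeq2 the controls gave 1 at 12 h and 1 at 72 h, and Rtl1 was the 1 transcript called with IL-1beta at 4 h. Library totals alone gave 7 for the cytokines against each other at 72 h, 1 for control at 72 h and 9 and 10 for the interactions. The first of these has 1 higher and 6 lower members. Without the filter the counts were 2 with TNF-alpha at 4 h and 1 at 24 h, 1, 0 and 2 between the cytokines at 4, 12 and 24 h, 1 for control at 72 h and 9 for the TNF-alpha interaction. Without the 3 libraries that stand apart they were 10 and 9 at 24 h, 22 with TNF-alpha at 72 h, 0, 2 and 4 between the cytokines at 12, 24 and 72 h, 1 and 4 for control at 12 and 72 h, 27 and 11 for the interactions, and 1, 15 and 1 hairpins with IL-1beta at 12 and 72 h and TNF-alpha at 24 h. The signs of miR-666-5p (-0.45) and miR-379-5p (-0.39) turned there. With all 39 mRNA columns the transcripts called were 1 and 3 with IL-1beta at 4 and 12 h and 1, 1 and 2 with TNF-alpha at 12, 24 and 72 h. The cause was not tested.

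Leaving out each library in turn gave at 72 h 22 to 32 calls for IL-1beta, 17 to 46 for TNF-alpha and 8 to 32 between the cytokines, at 24 h 3 to 5 and 1 to 2, 0 to 1 with IL-1beta at 4 h and 1 to 2 at 12 h. Between the cytokines it gave 0 to 1 at 12 h and 0 to 1 at 24 h, for control 0 to 1 at 12 h and at 72 h, and for the interactions 9 to 16 and 3 to 14. Hairpins ranged from 0 to 1, 1 to 4 and 4 to 9 at 12, 24 and 72 h of IL-1beta and from 2 to 11 at 72 h of TNF-alpha, and locus transcripts from 1 to 2 with IL-1beta at 4 h. The replicate letters share only a letter: same-letter deviations correlated at 0.003 on average (-0.444 to 0.663) in miRNA and at -0.0006 (-0.130 to 0.130) in mRNA, and 38.5% and 36.8% of libraries correlated best with their own letter. With the replicate block the counts at 72 h were 33 with IL-1beta, 39 with TNF-alpha and 21 between the cytokines, and the 12 h count between the cytokines was 0. Depth limits members under 10 CPM most: their median standard error with IL-1beta at 72 h was 0.30, beside 0.13 at 1000 CPM or more.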
